A study of Mus musculus with 24 samples.

Results

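Broad H3K4me3 domains are stretches of chromatin, several kilobases long, in which nucleosomes carry trimethylation of histone H3 at lysine 4. Here a broad domain was a joined H3K4me3 region of at least 5000 bp on chr1 to chr19 in any of 4 cell populations of the mouse fetal gonad, and overlapping broad regions of the 4 populations were merged. This gave 2428 domains of 71666 H3K4me3 regions in the same union, or 3.39% of the regions and 12.1% of the bases under H3K4me3. Because the domains were chosen by their H3K4me3 width, their widths are given as a description and no test was made on them.

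The 4 populations came from embryos of a C57BL/6 x CD1 background and were sorted by a fluorescent reporter from gonads cut away from the mesonephros. XY and XX progenitor cells were SF1-eGFP positive cells of male and female gonads at E10.5, where E gives the embryonic day, before the gonad takes on a sex. Sertoli cells were Sox9-CFP positive cells of male gonads at E13.5, and the cells labelled granulosa, here called pregranulosa, were TESM-CFP positive cells of female gonads at E13.5. Each reporter decides which cells a population holds. The sorts took cells pooled from several embryos, chromatin was cut with MNase without crosslinking and carried Drosophila S2 chromatin, and H3K4me3, H3K27me3 and total H3 were each profiled in 2 replicates per population, 24 samples in all. A single peak list was deposited for each mark and population, taken here as pooled over both replicates, so no spread between replicates could be measured for any value below, and the 95% intervals are exact (Clopper-Pearson) binomial intervals that cover counting error only. A list made from many cells adds them up, so that fewer marked cells and less mark per cell cannot be told apart.

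H3K4me3 is laid down by Trithorax-group methyltransferases at promoters, above all those rich in CpG, and a narrow peak over the transcription start site (TSS) is the usual form. Wide H3K4me3 stretches that run into the gene body are known for marking genes of cell identity, and CpG-dense developmental loci can carry them too. H3K27me3 is the mark of Polycomb repression, and promoters that carry both marks are called bivalent, a state typical of developmental genes that are held at low expression.

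The promoter sequences of 6 genes with domains are shown because they stand for the behaviours described below. They are Nr5a1, a core gonad factor that lost H3K27me3 in both lineages, the testis genes Fgf9 and Aard, and the ovary genes Rspo1, Wnt4 and Foxl2. Each is the 250 bases upstream of a protein-coding TSS in mm9 (NCBIM37), overlaps no annotated exon and is written 5′ to 3′ along the gene's strand, with each CG dinucleotide in capitals.
Nr5a1, chr2:38570063-38570312, minus strand: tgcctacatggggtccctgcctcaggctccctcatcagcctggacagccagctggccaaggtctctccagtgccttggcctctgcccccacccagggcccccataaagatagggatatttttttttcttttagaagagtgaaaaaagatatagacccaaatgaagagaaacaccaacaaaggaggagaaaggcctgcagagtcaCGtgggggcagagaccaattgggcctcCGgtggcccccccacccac
Fgf9, chr14:58689134-58689383, plus strand: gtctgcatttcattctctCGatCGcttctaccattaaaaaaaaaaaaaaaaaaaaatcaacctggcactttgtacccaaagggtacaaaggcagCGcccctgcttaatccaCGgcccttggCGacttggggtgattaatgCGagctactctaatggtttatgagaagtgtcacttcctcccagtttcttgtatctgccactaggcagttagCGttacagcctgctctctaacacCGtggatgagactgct
Aard, chr15:51871403-51871652, plus strand: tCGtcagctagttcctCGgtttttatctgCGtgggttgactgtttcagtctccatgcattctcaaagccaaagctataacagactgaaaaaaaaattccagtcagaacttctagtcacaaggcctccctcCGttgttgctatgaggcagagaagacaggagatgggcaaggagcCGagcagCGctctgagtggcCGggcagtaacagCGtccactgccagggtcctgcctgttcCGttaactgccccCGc
Rspo1, chr4:124663424-124663673, plus strand: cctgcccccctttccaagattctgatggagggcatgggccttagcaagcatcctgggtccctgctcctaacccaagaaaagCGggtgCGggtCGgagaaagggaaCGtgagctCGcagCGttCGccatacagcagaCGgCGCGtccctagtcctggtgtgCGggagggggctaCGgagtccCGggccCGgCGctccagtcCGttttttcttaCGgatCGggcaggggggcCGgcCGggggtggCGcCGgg
Wnt4, chr4:136833154-136833403, plus strand: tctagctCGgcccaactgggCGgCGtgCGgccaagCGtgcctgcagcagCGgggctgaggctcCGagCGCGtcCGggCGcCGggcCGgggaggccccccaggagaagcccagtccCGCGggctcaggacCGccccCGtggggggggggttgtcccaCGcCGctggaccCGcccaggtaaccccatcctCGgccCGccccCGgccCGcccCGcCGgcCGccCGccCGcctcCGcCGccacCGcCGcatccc
Foxl2, chr9:98855776-98856025, plus strand: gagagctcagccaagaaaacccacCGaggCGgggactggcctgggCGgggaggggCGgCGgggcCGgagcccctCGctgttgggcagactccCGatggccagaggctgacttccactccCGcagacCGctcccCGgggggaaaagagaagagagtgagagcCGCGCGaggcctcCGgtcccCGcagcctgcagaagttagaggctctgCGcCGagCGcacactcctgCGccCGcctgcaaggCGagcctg
CG occurred 33 times upstream of Wnt4 and 22 times each upstream of Rspo1 and Foxl2, against 10 for Aard, 8 for Fgf9 and 2 for Nr5a1. Over the promoters of the same length of all 21413 autosomal coding gene records, the median was 9 CG, 92.57% held at least 1 and 48.0% held 10 or more. Of 2278 promoters whose TSS lay in a broad domain 80.2% (78.5 to 81.8%) held 10 or more, compared with 70.8% (70.0 to 71.6%) of 11695 promoters under H3K4me3 outside the domains and 2.39% of 7440 promoters without H3K4me3. The Nr5a1 promoter thus held fewer CG than most promoters in domains.

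The lists differed in depth, and so did the number of broad regions. Regions of at least 5000 bp numbered 486 in XY progenitor cells (1.32% of 36828 joined regions), 1498 in XX progenitor cells (3.66% of 40878), 1044 in Sertoli cells (2.74% of 38056) and 1617 in pregranulosa cells (3.73% of 43367). The list headers gave 10162534, 49254553 and 31104760 H3K4me3 tags for the first 3 populations, in the same order as the counts, and the pregranulosa lists have no header. The part of depth in any difference in width between populations was therefore not tested, and the XY progenitor list had the fewest tags.

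Domains had a median width of 6135.5 bp with quartiles of 5492.75 and 7389 bp. Only 179 reached 10 kb and 15 reached 20 kb. The regions nearest to the threshold were those of Bmp2k at 5002 bp and Smad5 and Fam117a at 5003 bp each, inside it, and Nup107, a region near Gas1 and the Rpgrip1l/Fto region at 4999 bp each, outside it. H3K4me3 was present in all 4 lists at 2335 domains (96.2%), but the region was broad in a single list at 1208 domains (49.8%) and in all 4 lists at 292 (12%). Of the single-list domains, 524 were broad in pregranulosa, 458 in XX progenitor, 213 in Sertoli and 13 in XY progenitor cells. The median width of H3K4me3 in the domains was 3529 bp in XY progenitor, 5275.5 bp in XX progenitor, 4671.5 bp in Sertoli and 5410 bp in pregranulosa cells. Most domains were thus the same sites, marked throughout, whose width crossed the threshold in some populations and not in others.

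**Figure D1:**
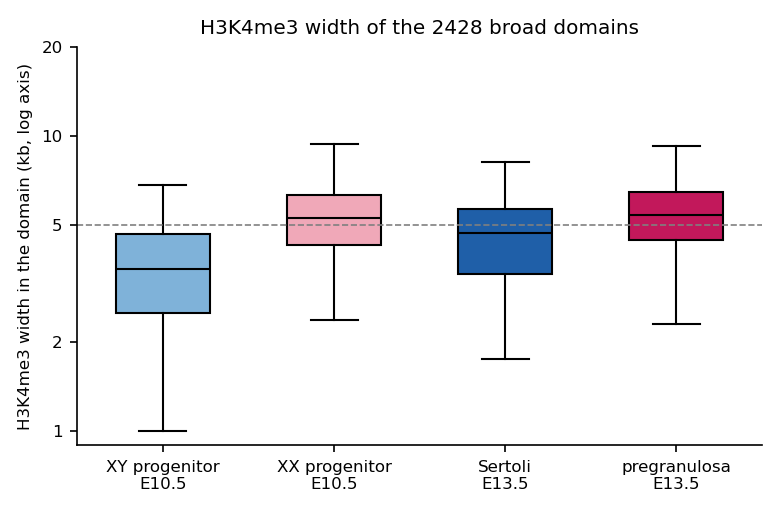
H3K4me3 width (kb, log axis) in the 2428 broad domains for each population, as the widest region that overlaps the domain, or 1 kb where there was none. Boxes give the median and quartiles, whiskers the 5th and 95th percentiles, and the dashed line the 5 kb threshold. The XY progenitor box, from the list with the fewest tags, lies below the threshold, with a median of 3529 bp.

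Broad domains mostly lay over gene starts. Of the 2428 domains, 2087 or 86.0% (84.5 to 87.3%) held the TSS of a protein-coding gene, while 19.8% of all 71666 union regions did. A wide region can hold a TSS by its width alone, so the density is given too, which was 1.47 coding genes per 10 kb in the domains against 1.12 in all regions. A single gene start lay in 1750 domains, and 2435 coding genes, 11.4% of 21281, had a TSS in a domain. In those 1750 domains the mark reached a median of 4452.5 bp downstream of the TSS but 1788 bp upstream, and 1536 domains (87.8%) were longer downstream. The genes had a median length of 33382 bp, so the mark stopped well inside most of them and covered the whole gene in 152 domains (8.69%). CpG content of the domains, as the ratio of observed to expected CpG, had a median of 0.472 against 0.264 over all union regions.

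**Figure D2:**
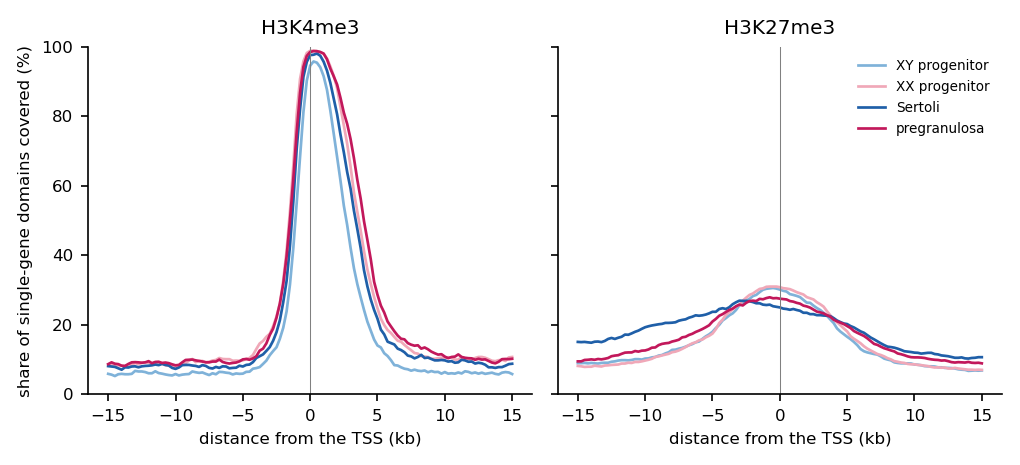
Share of the 1750 single-gene domains (%) that were covered by H3K4me3 (left) or H3K27me3 (right) at each distance from the TSS (kb, positive downstream), with a line per population. H3K4me3 fell away more slowly downstream, where at 3 kb it covered 42.2% of domains in XY progenitor cells and 73.5% in pregranulosa cells, and H3K27me3 was spread more evenly on both sides.

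Of the 341 domains without a coding TSS, 41 held the start of a lincRNA, antisense or processed transcript, 18 that of a small RNA, rRNA or pseudogene, and 282 no annotated start. The widest domain was of this kind, at chr8:126060972-126148685 (87714 bp), and it held 51 annotated rRNA genes of the 5S type. There 95.9% of 50-base words occurred more than once within the domain, and both marks covered nearly all of it in the 4 populations, so that reads there cannot be placed at single copies. A pair of domains of predicted genes near the start of chr9, chr9:3030080-3038697 and chr9:3012042-3019232, were likewise repeated, at 62.1% and 65.4% of such words. Other wide domains without a coding TSS within 5 kb lay near Lzts1 (11829 bp), Btn2a2 (11366 bp) and Kcnq1 (11088 bp). The domain near Lzts1 was 11829 bp wide in pregranulosa cells alone, against 1257 to 2545 bp in the other populations.

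Genes with roles in the gonad were common in the domains. Of the 18 genes of a list of core factors of the early gonad, 12 had a TSS in a domain, as did 16 of 18 autosomal genes of the testis pathway list and 17 of 18 of the ovary pathway list, beside 11.4% of all coding genes. These lists, like the domains, were chosen with results of these data known. The core factors without a domain included Cbx2, Dmrt1, Insr, Lhx2 and Map3k4, the testis genes without one were Dmrt1 and Ptgds, and the ovary gene without one was Esr2. The other lists had 29 of 39 Hox genes, 86 of 202 genes of other developmental transcription factor families, 41 of 67 replication-dependent histone genes, 41 of 115 signalling genes, 13 of 31 Polycomb and Trithorax genes, 9 of 20 tumour suppressor and cell cycle genes and 16 of 75 ribosomal protein genes. Histone genes lie in clusters, as Hox genes do, and their members share domains.

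The labelled cell types were checked against marker genes. All 6 supporting cell markers had domains, while 1 of 10 germ cell markers (Sall4) and none of 9 endothelial or 6 blood markers did. No H3K4me3 region covered the TSS of the germ cell genes Ddx4 and Nanos3, the endothelial genes Pecam1, Tek and Tie1, or the blood genes Ptprc and Hba-a1 in any list. Other markers of these types had narrow H3K4me3 at the TSS in all 4 lists, among them the germ cell genes Dazl (1256 to 2134 bp), Kit (2978 to 4024 bp), Prdm1 and Utf1, the endothelial genes Kdr (2051 to 3514 bp) and Sox18, and the blood gene Tal1 (1575 to 3273 bp). The Amh TSS, which is active in Sertoli cells, was under H3K4me3 in Sertoli cells alone (7065 bp). The Foxl2 TSS, a granulosa gene, was under a region of 14012 bp in pregranulosa and 3236 bp in Sertoli cells. The mesonephric genes Pax2 and Pax8 and the interstitial genes Tcf21, Nr2f2 and Pdgfra had domains, and Sox10, a neural crest gene that is related to Sox9, had a domain of 9222 bp in Sertoli cells. Whether cells other than the labelled type carried these marks was not tested.

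The core factors made up some of the widest domains. Gata4, a zinc finger factor needed for gonad formation, had a domain of 27099 bp at chr14:63849524-63876622. H3K4me3 there was 8008 bp wide in XY progenitor, 11819 bp in XX progenitor, 26356 bp in Sertoli and 27099 bp in pregranulosa cells. H3K27me3 covered the whole domain in both progenitor populations and none of it in Sertoli or pregranulosa cells. Another Gata4 domain, at chr14:63879737-63892230, was 12494 bp wide and its H3K27me3 went the same way. At this locus H3K4me3 was thus wider in both lineages where H3K27me3 was no longer called.

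Wt1, a zinc finger factor needed for gonad and kidney, also lost H3K27me3, which had covered 39.4% and 100% of its domain at E10.5, while H3K4me3 stayed wide. Its domain at chr2:104960348-104977698 measured 16789 bp, 16690 bp, 14471 bp and 17351 bp in XY progenitor, XX progenitor, Sertoli and pregranulosa cells. Nr5a1, which encodes the steroidogenic factor SF1 and drives the reporter of the progenitor sort, measured 4877 bp in XY progenitor cells and 6517 to 6651 bp in the other populations. Zfpm2, which encodes the GATA4 partner FOG2, measured 4621 bp in XY progenitor cells and 5138 to 5936 bp elsewhere. Gata4, Wt1, Nr5a1 and Zfpm2 were the 4 of 8 core genes with H3K27me3 in both progenitor populations that had none in either population at E13.5, as had 18.3% of all domains and 10.7% of all union regions of this kind.

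The homeobox genes Emx2 and Lhx9 differed between the lineages instead. The Emx2 domain at chr19:59524644-59546935 was 17965 bp and 18774 bp wide in XY and XX progenitor cells, 22099 bp in pregranulosa cells and 8153 bp in Sertoli cells. H3K27me3, which covered all of it at E10.5, covered 12320 bp in Sertoli and 2999 bp in pregranulosa cells. The Lhx9 domain at chr1:140727107-140746873 was 15508 bp and 15164 bp wide at E10.5, 19767 bp in pregranulosa cells and 7416 bp in Sertoli cells. H3K27me3 covered 75.7% of it in Sertoli cells and none in pregranulosa cells. Both genes thus kept a wide domain in the female lineage and had a narrower widest region, with more H3K27me3 in the domain, in the male lineage. The Emx2 TSS itself was not under H3K27me3 in Sertoli or pregranulosa cells. In Sertoli cells H3K4me3 was split into several regions, which together covered 15192 bp of the Emx2 domain and 12407 bp of the Lhx9 domain.

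Tcf21 and Osr1, factors of the interstitial and urogenital mesenchyme, had narrower H3K4me3 in both E13.5 populations. Tcf21 measured 10075 bp and 12246 bp in XY and XX progenitor cells, 4978 bp in Sertoli and 3290 bp in pregranulosa cells. Osr1 measured 4318 bp and 9999 bp in the progenitor populations and 3402 bp and 3480 bp in Sertoli and pregranulosa cells. All 4 populations had H3K27me3 over the whole of both domains.

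**Figure D3:**
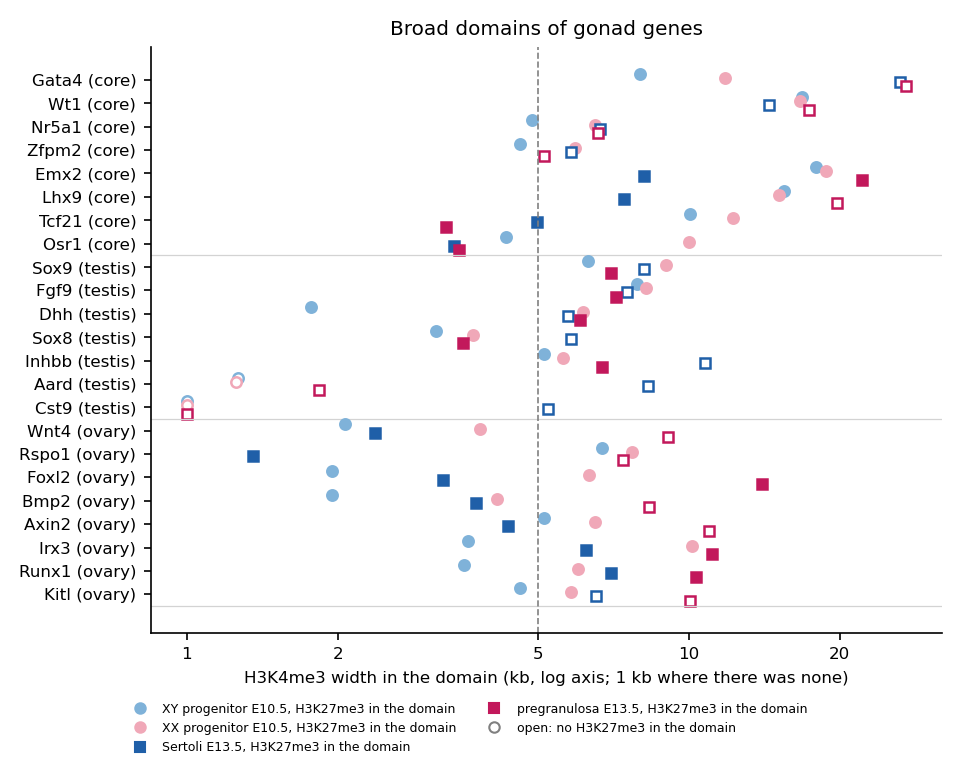
H3K4me3 width (kb, log axis) in the domains of gonad genes, with circles for E10.5 and squares for E13.5, blue for XY and red for XX cells. Filled symbols had H3K27me3 in the domain and open symbols had none, and the dashed line is 5 kb. For Sox9, Fgf9, Dhh, Sox8 and Inhbb the Sertoli square is open and the pregranulosa square filled, and for Wnt4, Rspo1, Bmp2 and Axin2 it is the reverse.

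Testis pathway genes lost H3K27me3 in Sertoli cells. Of the 16 with domains, 12 had H3K27me3 in both progenitor populations, and at E13.5 it was kept only in pregranulosa cells at 9 and in both populations at 3. None kept it only in Sertoli cells. Over all H3K4me3 regions with H3K27me3 in both progenitor populations, 6.67% kept it only in pregranulosa cells, 6.79% only in Sertoli cells, 75.9% in both and 10.7% in neither. The 9 were Sox9, Fgf9, Dhh, Sox8, Erbb3, Etv5, Inhbb, Pdgfa and Znrf3, and the 3 were Cyp26b1, Gdnf and Ptch1. Over all 2435 coding genes in domains, 683 had H3K27me3 in both progenitor populations, and 92 of these kept it only in pregranulosa cells and 31 only in Sertoli cells.

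Sox9 encodes the HMG-box factor that directs Sertoli cell fate. Its domain at chr11:112639698-112649034 was 6300 bp wide in XY progenitor, 9003 bp in XX progenitor, 8157 bp in Sertoli and 7008 bp in pregranulosa cells. H3K27me3 covered 100% of it in 3 populations and 0% in Sertoli cells. Fgf9, which encodes a secreted growth factor that upholds Sox9, was similarly even in H3K4me3, at 7878 bp, 8224 bp, 7549 bp and 7157 bp in the same order, and again lacked H3K27me3 in Sertoli cells alone. H3K4me3 at both genes was therefore broad in the female lineage too, where it lay under H3K27me3.

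Other testis genes grew wider in the male lineage. Inhbb, which encodes the inhibin beta B subunit, was 5145 bp wide in XY progenitor and 10752 bp in Sertoli cells, against 5609 bp and 6716 bp in XX progenitor and pregranulosa cells. Sox8, a relative of Sox9, was 3136 bp wide in XY progenitor and 5814 bp in Sertoli cells, against 3708 bp and 3556 bp in the female lineage. Dhh, which encodes the hedgehog ligand of Sertoli cells, measured 1769 bp in XY progenitor cells and 5759 to 6145 bp in the other 3 populations. In XY progenitor cells, the list with the fewest tags, several regions together covered 4767 bp of the Dhh domain. By covered bases Dhh thus differed much less from the 5759 bp of Sertoli cells. Of the 16 testis genes, 10 had a domain at least 1.5 times wider in Sertoli than in XY progenitor cells and 1, Fgfr2, was at least 1.5 times wider in pregranulosa than in XX progenitor cells. Over all coding genes in domains the counts were 721 and 389 of 2435, and over all union regions 10.8% and 6.81% were wider. All 16 had a TSS in a domain broad in Sertoli cells, against 7 in XY progenitor cells. These width counts are therefore not independent of the rule that chose the domains. Fgfr2 entered the counts of 16 and 7 only through a transcript start in the domain of Ctbp2. At its own promoter, whose domain was used for the ratios, it was 3363 bp wide in Sertoli and 4894 bp in XY progenitor cells.

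Aard, Amh and Cst9 were broad in Sertoli cells alone. Aard was 8310 bp wide in Sertoli cells and 1265 bp, 1253 bp and 1830 bp wide in XY progenitor, XX progenitor and pregranulosa cells, and it carried H3K27me3 in none. Cst9 measured 5236 bp in Sertoli cells, 1001 bp in XY progenitor cells and had no region in the female lineage. Amh, the anti-Müllerian hormone, had a domain of 7065 bp in Sertoli cells, and the regions of 3817 to 4847 bp that overlapped it in the other populations did not reach its TSS. H3K27me3 in the Amh domain was called in pregranulosa cells alone, over 65.1% of its bases. Fgfr2, which encodes a receptor of FGF9, went against this pattern, being 10827 bp wide in pregranulosa and 3363 bp in Sertoli cells at its own promoter. The annotation also starts a transcript of Fgfr2 in the domain of Ctbp2 (6461 bp), far from this promoter.

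Ovary pathway genes were wider in pregranulosa cells. Of 17 with domains, 13 were at least 1.5 times narrower in Sertoli than in pregranulosa cells and 0 were wider, while 557 and 144 of all 2435 genes were, and 8.95% and 3.79% of all union regions. All 17 had a domain broad in pregranulosa cells and 7 had one broad in Sertoli cells. The width counts are thus not independent of the rule that chose the domains. H3K27me3 was in both progenitor populations at 14, and it was kept in both E13.5 populations at 9, only in Sertoli cells at 4, in neither at 1 (Kitl) and only in pregranulosa cells at 0. The 4 were Wnt4, Rspo1, Bmp2 and Axin2.

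Wnt4 and Rspo1 encode the secreted signals of the ovarian WNT pathway. The Wnt4 domain at chr4:136831934-136841031 was 2067 bp wide in XY progenitor, 3840 bp in XX progenitor, 2374 bp in Sertoli and 9098 bp in pregranulosa cells. H3K27me3 covered 71.4% of it in Sertoli cells and none in pregranulosa cells. Rspo1 took another course, from 6715 bp and 7713 bp in the progenitor populations to 1352 bp in Sertoli and 7405 bp in pregranulosa cells. Its H3K27me3 covered the whole domain in Sertoli cells and none of it in pregranulosa cells. By the widest region Wnt4 thus widened in the female lineage while Rspo1 narrowed in the male one. H3K4me3 at Wnt4 was split into several regions in the other populations. All regions together covered 5418 bp of its domain in XY progenitor, 6235 bp in XX progenitor, 4214 bp in Sertoli and 9098 bp in pregranulosa cells. At Rspo1 they covered 3645 bp in Sertoli cells.

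Foxl2, the forkhead factor of granulosa cells, lay in called H3K27me3 regions in all 4 populations. H3K27me3 peaks were 5000 bp long before they were stitched together, so a loss over part of such a region, such as the TSS, is not resolved by these lists. At chr9:98852169-98866180 it measured 1943 bp in XY progenitor, 6315 bp in XX progenitor, 3236 bp in Sertoli and 14012 bp in pregranulosa cells, with H3K27me3 over 100% of it in all 4. Irx5 was similar by its widest region, with 15046 bp in pregranulosa cells against 6016 to 6996 bp elsewhere, and fully under H3K27me3. In XX progenitor cells all regions together covered 12700 bp of the Irx5 domain. Irx3, Runx1 and Kitl were also widest in pregranulosa cells, at 11142 bp, 10332 bp and 10045 bp. Bmp2, which encodes a TGF-beta family ligand, reached 8318 bp in pregranulosa cells and 1946 to 4157 bp elsewhere. Axin2, a target of WNT signalling, reached 10961 bp against 4365 to 6506 bp. At Foxl2 and Irx5 wide H3K4me3 thus lay inside called H3K27me3 regions in pregranulosa cells, at the resolution of the stitched peaks, and whether both marks lay in the same cells was not tested.

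Hox genes were in 6 of the 12 widest domains, and in most Hox domains the widest H3K4me3 region narrowed from E10.5 to E13.5. A total of 12 domains held the TSSs of 29 Hox genes, so that the genes are not independent. All 12 were at least 1.5 times narrower in pregranulosa than in XX progenitor cells and 7 were narrower in Sertoli than in XY progenitor cells, beside 8.59% and 2.23% of all union regions. All 29 genes had a TSS in a domain broad in XX progenitor cells and 26 in XY progenitor cells, against 15 in pregranulosa and 8 in Sertoli cells. These width counts are thus not independent of the rule that chose the domains. Width is that of the widest single region, so a domain split into several regions counts as narrower. In pregranulosa cells all regions together covered 25678 of 31144 bp of the Hoxd10 to Hoxd3 domain and 18130 of 25721 bp of Hoxc10/Hoxc9. They covered 22321 of 62290 bp of the Hoxb9 to Hoxb3 domain. In the male lineage the Hoxd10 to Hoxd3 domain did not narrow (6991 bp to 7002 bp), and the Hoxd11 domain went from 1801 bp to 3829 bp. The Hoxb domain from Hoxb9 to Hoxb3, at chr11:96129943-96192232, was 25980 bp wide in XY progenitor and 62290 bp in XX progenitor cells, and its widest regions measured 4565 bp in Sertoli and 5022 bp in pregranulosa cells. H3K27me3 covered 24.3% and 27.4% of it at E10.5 and 97.4% and 100% at E13.5, in Sertoli and pregranulosa cells. The Hoxa domain from Hoxa4 to Hoxa10, at chr6:52136851-52187417, went from 32136 bp and 50567 bp to 4164 bp and 3230 bp, with H3K27me3 over 30.1% and 35.4% at E10.5 and all of it at E13.5.

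The Hoxc domain of Hoxc8 to Hoxc4 was an exception in the female lineage. It was 14100 bp and 53971 bp wide at E10.5, 5159 bp in Sertoli and 11969 bp in pregranulosa cells. H3K27me3 rose from 21.4% and 19.9% of its bases to 92.1% in Sertoli cells, but to 27.3% in pregranulosa cells. Across the 12 domains the median share under H3K27me3 was 31.0% in XY progenitor, 23.6% in XX progenitor and 100% in both E13.5 populations. Nr2f2 and Nr2f1, nuclear receptors of the mesenchyme, gained H3K27me3 as well. By the widest region both narrowed in the female lineage, while in the male lineage only Nr2f2 of the pair passed the factor of 1.5. The widest region of Nr2f2 fell from 25229 bp and 29753 bp to 6225 bp in Sertoli and 9357 bp in pregranulosa cells. All its regions together covered 26230 bp and 29753 bp at E10.5 and still 18707 bp and 21530 bp at E13.5. H3K27me3 at Nr2f2 rose from 16.8% and 0% of bases to 97.7% and 68.7%. Nr2f1, at 11547 bp and 23851 bp at E10.5, was 10140 bp and 6850 bp wide at E13.5, with H3K27me3 over the whole domain where it had covered at most 1.53%.

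H3K27me3 overlapped about 30% of all the domains. The shares were 31.3% (29.5 to 33.2%) in XY progenitor, 31.1% (29.3 to 33.0%) in XX progenitor, 28.2% (26.4 to 30.0%) in Sertoli and 28.4% (26.6 to 30.2%) in pregranulosa cells, beside 22.5%, 22.8%, 22.9% and 22.9% of all H3K4me3 regions of the same lists. A wide region meets H3K27me3 more easily, so bases and gene starts were counted too. H3K27me3 covered 25.8%, 27.1%, 25.5% and 25.1% of the bases of the domains in the same order. Of the bases of all H3K4me3 regions of the same lists it covered 23.8%, 25%, 20.9% and 21.9%. By bases the shares of the domains were somewhat higher, but these shares are not like for like. Those of the domains count the whole merged domain, also where the population itself had no H3K4me3. Those of all regions count only bases under H3K4me3 in that list. At gene starts the domains had the lower share. Among genes whose TSS lay under H3K4me3, the TSS was under H3K27me3 too at 26.3% of those in domains and 29.5% of all such genes in XY progenitor cells. The pairs were 28.2% and 30.9% in XX progenitor, 21.4% and 26.3% in Sertoli, and 23.6% and 27.3% in pregranulosa cells. The H3K27me3 lists covered 89.7 and 82.2 Mb of the autosomes at E10.5 and 155.9 and 129.8 Mb at E13.5 in Sertoli and pregranulosa cells, so the lower share at E13.5 stood in lists that covered more of the genome.

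The widest domains met H3K27me3 most often. In XX progenitor cells the share was 28.3% of 1090 domains under 6 kb and 53.5% of 71 domains of 12 kb or more, and in pregranulosa cells it was 26.7% and 46.5%. In the domains that were broad in the population itself, the share was 38.5% and 35.7% in XY and XX progenitor cells and 18.8% and 19.7% in Sertoli and pregranulosa cells. Beside the 22.5%, 22.8%, 22.9% and 22.9% of all H3K4me3 regions of the same lists, it was thus higher at E10.5 and lower at E13.5. No H3K27me3 was called in any population at 1394 domains (57.4%), and it was called in all 4 at 441 (18.2%). The 5 domains with the most H3K27me3 in all 4 populations were the 5S rRNA array, the Hoxd10 to Hoxd3 domain, Hoxc10/Hoxc9, Tbx2 and Pax2.

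**Figure D4:**
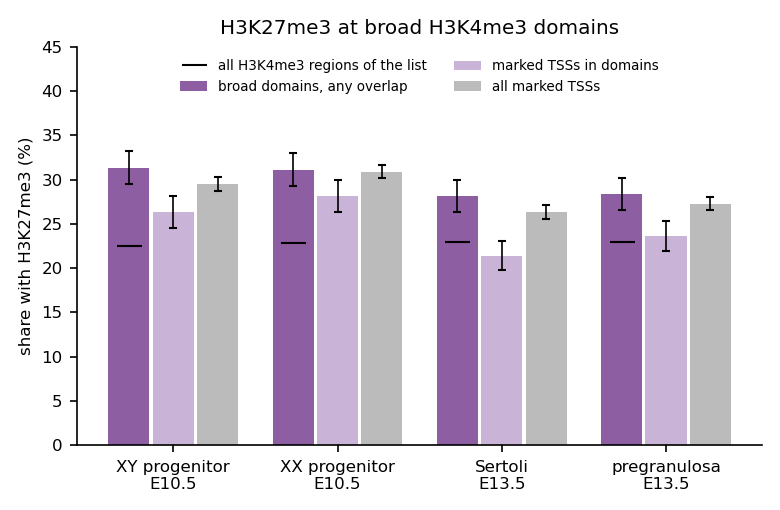
Share (%) with H3K27me3 in each population, for the 2428 domains with any overlap (dark bars), for genes with a TSS under H3K4me3 in a domain (light bars) and for all genes with a TSS under H3K4me3 (grey bars), with exact 95% intervals of counting error. Black dashes give the share of all H3K4me3 regions of the list, 22.5 to 22.9%, which the dark bars pass and which are not corrected for width.

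Domains with H3K27me3 in both progenitor populations were followed to E13.5. There were 693, of which 441 or 63.6% (59.9 to 67.2%) kept it in both E13.5 populations, 127 or 18.3% (15.5 to 21.4%) in neither, 86 or 12.4% (10 to 15.1%) only in pregranulosa cells and 39 or 5.63% (4.03 to 7.61%) only in Sertoli cells. Over all 9444 union regions of this kind the shares were 75.9%, 10.7%, 6.67% and 6.79%. Loss in Sertoli cells alone was thus more frequent among domains than among all regions, while the share lost in pregranulosa cells alone lay within counting error of that of all regions. Domains were chosen by H3K4me3 width in any list, those of E13.5 included, and width went with H3K27me3 change, as given below. This comparison is therefore not independent of the rule. At a limit of 8000 bp, 16 domains kept it only in pregranulosa cells and 16 only in Sertoli cells. H3K27me3 was in neither progenitor population at 1605 domains, of which 78 (4.86%) gained it in both E13.5 populations, 84 (5.23%) only in Sertoli cells, 49 (3.05%) only in pregranulosa cells and 1394 (86.9%) in neither, beside 4.11%, 6.49%, 3.53% and 85.9% of 59594 union regions.

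Domains that kept H3K27me3 only in pregranulosa cells were led, by bases covered at E10.5, by Rab20, Sox9, Inhbb, BC021891, Pdgfa, Cyr61, Gm1337, Fgf9, Cbln4 and Mcam. The Cbln4 domain, of a cerebellin family gene, was 8040 bp wide in Sertoli cells and 2387 to 2946 bp elsewhere. Mcam, a cell adhesion gene, was 7913 bp wide in Sertoli cells and 1781 to 3455 bp elsewhere. Those that kept it only in Sertoli cells included Lhx9, Wnt6, Sp5, a region near Irx3, Podxl, Bmp2, Zfp703, Wnt4 and Plxdc1. Wnt6 was 16134 bp wide in pregranulosa and 9180 bp in Sertoli cells. Sp5, a zinc finger gene downstream of WNT signals, was 10738 bp wide in pregranulosa cells, without H3K27me3, and 6262 bp in Sertoli cells, where H3K27me3 covered all of it. The H3K4me3 widths went with these classes. Sertoli cells had a median width ratio over pregranulosa cells of 1.29 (quartiles 0.974 and 1.60) at the 86 domains that kept H3K27me3 only in pregranulosa cells, where 28 were at least 1.5 times wider and 3 narrower. The ratio was 0.572 (quartiles 0.394 and 0.859) at the 39 that kept it only in Sertoli cells, where 3 were wider and 22 narrower. It was 0.874 and 0.859 at the domains that kept it in both populations and in neither.

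Where H3K27me3 was lost H3K4me3 was wider, and where it was gained H3K4me3 was narrower. From XY progenitor to Sertoli cells, the median width ratio of domains with H3K4me3 at both stages was 1.54 (quartiles 1.2 and 2.36) at 253 domains that lost H3K27me3, 1.27 at 1420 that never had it, 1.03 at 493 that kept it and 0.886 at 172 that gained it. From XX progenitor to pregranulosa cells the ratios were 1.19 (quartiles 0.984 and 1.75), 1.08, 0.879 and 0.673 at 211, 1495, 543 and 144 domains. The order of the 4 classes was the same in both lineages. In regions outside the domains the ratios were 1.26 where H3K27me3 was lost and 1 where it was gained in the male lineage, and 1 and 0.834 in the female lineage. Those regions are under 5000 bp in every list by the rule, so the size of their ratios cannot be compared with that of the domains.

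Width differences between populations were counted at a fixed factor of 1.5, with a floor of 1000 bp where a population had no region. From XY progenitor to Sertoli cells 763 domains (31.4%) were wider and 192 (7.91%) narrower, beside 10.8% and 2.23% of all union regions. From XX progenitor to pregranulosa cells 438 (18.0%) were wider and 396 (16.3%) narrower, beside 6.81% and 8.59%. Sertoli cells had 172 wider (7.08%) and 604 narrower domains (24.9%) than pregranulosa cells, beside 3.79% and 8.95%. XX progenitor cells had 975 wider (40.2%) and 7 narrower domains (0.288%) than XY progenitor cells, beside 17.4% and 0.539%. These lists differ in depth. When widths were ranked within each list and a difference of 5 percentile points was counted instead, the wider part of the called domains was 61.7% in place of 79.9% from XY progenitor to Sertoli cells and 83.6% in place of 99.3% from XY to XX progenitor cells.

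The largest ratios named single loci. From XY progenitor to Sertoli cells they were led by Sox10 (no region to 9222 bp), Aldh1a1 (no region to 8353 bp), Gas7 (no region to 8253 bp), and regions near Sema7a and Znrf2. Aldh1a1 encodes a retinaldehyde dehydrogenase, and it was 6950 bp wide in pregranulosa cells as well. In the other direction were 3 Hox domains, Hand2 and Crb2, with Hand2 going from 8850 bp to 1576 bp. From XX progenitor to pregranulosa cells the domains that widened most were the repeated pair on chr9 and regions near Fam110c, 9030224M15Rik and Gas7. Those that narrowed most were 3 Hox domains, a region near Gse1 and Uncx.

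Between Sertoli and pregranulosa cells the ratio was largest for Sox10 (9222 bp against 1252 bp), and for Etl4 and regions near Ptplb, Foxn1 and Ptk2b. In the other direction were Isx, a region near Stk24, Ces1h, Tcf12 and a region near Fgfr2. Isx was 8456 bp wide in pregranulosa cells and had no region in Sertoli cells, and Tcf12, which encodes a bHLH factor, was 7348 bp wide in pregranulosa cells and had none in Sertoli cells. Between the progenitor populations the wider ones in XX cells were led by the region near Aldh1b1 (9017 bp against 1262 bp) and Pitx1 (9388 bp against 1347 bp), then Nkx2-3 and regions near Il17rd and Spsb4. The wider ones in XY cells were a region near Fbxw17, Ykt6, Ifnz/Gm13276, Clint1 and Esrrg, of which Ykt6 measured 5799 bp against 2553 bp. Several of the domains with the largest ratios were poor in CpG, with an observed to expected ratio of 0.104 at Isx, 0.161 at Gas7 and 0.173 at Aldh1a1, while it was 0.526 at Pitx1 and 0.627 at Nkx2-3. The Ifnz/Gm13276 domain was repeated at 62.4% of 50-base words.

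The study's lists of sex-specific genes, taken from earlier expression data on sorted gonad cells, were set against the domains. Of 1328 autosomal Sertoli-specific genes 360 or 27.1% (24.7 to 29.6%) had a TSS in a domain, and of 1073 pregranulosa-specific genes 311 or 29.0% (26.3 to 31.8%) did, beside 11.4% of all coding genes. Of the Sertoli-specific genes in domains 82 (22.8%) were at least 1.5 times wider in Sertoli than in pregranulosa cells and 17 (4.72%) narrower. Of the pregranulosa-specific genes 0 were wider in Sertoli cells and 163 (52.4%) were narrower. Over all genes in domains 5.91% were wider and 22.9% narrower. Of the 360, 270 had a domain broad in Sertoli and 189 one broad in pregranulosa cells, and of the 311, 89 and 280 did. The width counts are thus not independent of the rule. Outside the domains the same lists had 10.2% wider and 1.93% narrower among 931 Sertoli-specific genes, and 0.274% and 28.1% among 730 pregranulosa-specific genes. The directions were the same, but these regions are under 5000 bp in every list by the rule, so the sizes of the shares cannot be compared.

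H3K27me3 followed the same lists. It was in the domains of 120 and 123 of the 360 Sertoli-specific genes in XY and XX progenitor cells, of 115 (31.9%) in pregranulosa cells and of 42 (11.7%) in Sertoli cells. Over all coding genes in domains the shares were 30.6% and 30.4% in XY and XX progenitor, 27.5% in pregranulosa and 26.0% in Sertoli cells, so the progenitor values of the list lay close to them. Among the 311 pregranulosa-specific genes it was at 96 in each progenitor population, 71 (22.8%) in pregranulosa cells and 114 (36.7%) in Sertoli cells. Of the 109 Sertoli-specific genes with H3K27me3 in both progenitor populations 52 kept it only in pregranulosa cells and 2 only in Sertoli cells. Of the 85 such pregranulosa-specific genes 11 kept it in the Sertoli population alone and 1 in the pregranulosa population alone, while 53 kept it in both. A further 25 of the former and 20 of the latter had it in neither E13.5 population. Of all 683 such genes in domains 92 kept it in the pregranulosa population alone, 31 in the Sertoli population alone, 439 in both and 121 in neither.

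**Figure D5:**
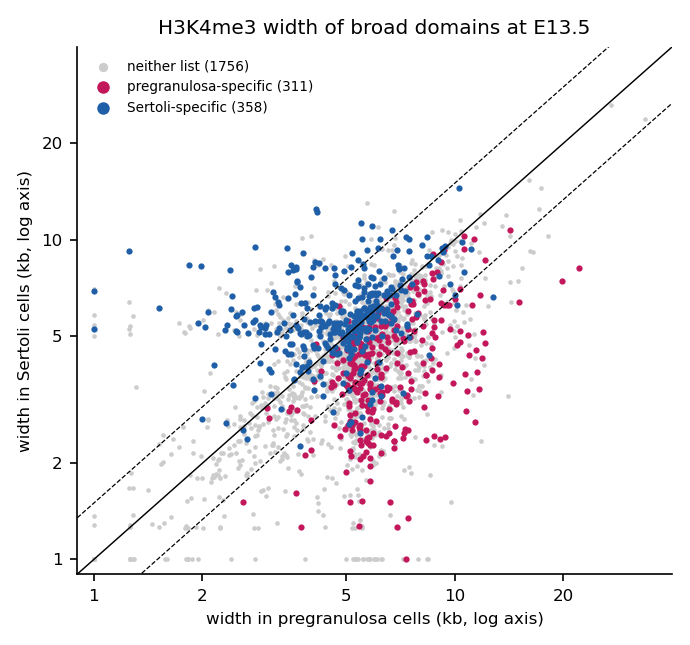
H3K4me3 width of each domain in pregranulosa (x axis) and Sertoli cells (y axis), both in kb on log axes and set to 1 kb where there was no region. Blue points are domains with Sertoli-specific genes (358), red points those with pregranulosa-specific genes (311) and grey points the other 1756, the 3 domains with genes of both lists being left out. The solid line marks equal width and the dashed lines a factor of 1.5. Counted by gene over all domains, not by point, 163 pregranulosa-specific genes lay under the lower dashed line and 0 above the upper one.

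Several domains held many genes. The most coding TSSs were in the Hoxb9 to Hoxb3 and Hoxa4 to Hoxa10 domains with 7 each, in the Hoxd10 to Hoxd3 domain with 5, in a domain of Mvp, Prrt2 and Maz with 5 and in a histone cluster domain of Hist1h2ae to Hist1h3d with 5. The last was 9243 bp wide and even, at 7138 bp, 9243 bp, 7754 bp and 8260 bp in XY progenitor, XX progenitor, Sertoli and pregranulosa cells, and its H3K27me3 went from 54.1% and 68.5% of bases at E10.5 to none at E13.5. The Mvp, Prrt2 and Maz domain carried no H3K27me3 and measured 15430 bp in XX progenitor cells, against 5864 to 8360 bp elsewhere.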

How the data were processed

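H3K4me3, H3K27me3 and H3 were profiled by native MNase ChIP-seq in 24 samples, 2 replicates of each mark in 4 sorted populations. The authors trimmed and aligned the reads to mm9 and called peaks with HOMER against H3. The study's methods describe peak calling for each replicate, whereas a single list was deposited per mark and population. The progenitor headers name concatenated tags, the Sertoli headers do not say, and all lists were taken as pooled over both replicates. The submitters' processing notes name Trim Galore, Bowtie, SAMtools and HOMER without versions. Per the file headers, H3K4me3 peaks were 1000 bp and H3K27me3 peaks 5000 bp before stitching, and both needed 4-fold over input and over the local background, with a limit of 1e-04 on the Poisson p-value. The pregranulosa lists have 3 columns and no header, so their depth and settings are not given in the sources used here. The deposited score columns were not used, only peak positions.

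Overlapping peaks were joined within a list, and widths, overlaps and counts were computed in Python 3.11.15 with bedtools 2.31.1 and pysam 0.24.0. Width in a population was that of its widest region in the domain, with a floor of 1000 bp in ratios. A TSS was the 5′ end of any protein-coding transcript of the NCBIM37 (mm9) annotation. No test was run, because each population had 1 pooled list. Shares have exact Clopper-Pearson 95% intervals. Joining and coverage were tested on simulated regions, where 100% of 300 planted domains were recovered. The domains and gene lists were chosen with earlier results of these data known. Domains were named by rule: the 12 widest, 3 on each side of 5000 bp, all with a core, testis or ovary list gene, the 5 largest ratios per direction, the 5 with most H3K27me3, up to 10 per class that kept H3K27me3 in 1 E13.5 population, the 5 with most coding TSSs and the 5 widest without a TSS within 5000 bp. The domains with opposite changes in the lineages were named after their values were seen. The study's own gene lists came from earlier expression data, and only gene names were used. Alternatives were other width limits, joining distances, overlaps, factors, ranks and equal numbers of regions. A few items that the naming rule picks are not reported here.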

Additional observations from a re-analysis of the deposited data

Results flagged for a closer look

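At 68 domains H3K4me3 was at least 1.5 times wider in Sertoli than in XY progenitor cells and at least 1.5 times narrower in pregranulosa than in XX progenitor cells (2.80% of domains, beside 0.769% of all union regions). At 6 domains the reverse was seen (0.247%, beside 0.0377%). These were picked out because the lineages moved in opposite directions, and the difference was not tested, since each population has 1 list and the XY progenitor list has the fewest tags. The 68 were led by a region near BC057022, Sox10, a region near Gm5069, Gm1337 and Islr2/1600029O15Rik. The Islr2 domain measured 2750 bp in XY progenitor, 10149 bp in XX progenitor, 12172 bp in Sertoli and 4163 bp in pregranulosa cells. The 6 were Clint1, Pcdh18, a region near Aff1, Chrm4/Mdk, Mapk8ip1 and Rab11fip2. Pcdh18, a protocadherin gene, measured 5595 bp, 5760 bp, 2686 bp and 11417 bp in the same order, and Mdk, which encodes the growth factor midkine, shared a domain of 6023 bp, 7495 bp, 3403 bp and 12436 bp.

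The X chromosome was not among the chromosomes on which domains were chosen, and its H3K27me3 stood out. By the same width rule it held 43 broad regions of 1574, 37 of them with a coding TSS. H3K27me3 overlapped 8 of the 43 in XY progenitor cells (18.6%, 8.39 to 33.4%) and 7 in Sertoli cells (16.3%, 6.81 to 30.7%). In XX cells it overlapped 41 in progenitor cells (95.3%, 84.2 to 99.4%) and 36 in pregranulosa cells (83.7%, 69.3 to 93.2%). Over all joined H3K4me3 regions of this chromosome the shares were 14.4% in XY progenitor and 13.8% in Sertoli cells. They were 82.3% in XX progenitor and 72.6% in pregranulosa cells, so the contrast was not particular to the broad regions. The whole chromosome moved the same way, with H3K27me3 over 1.19 Mb and 1.95 Mb in XY progenitor and Sertoli cells and over 61.6 Mb and 43.1 Mb in XX progenitor and pregranulosa cells. X inactivation, the silencing of an X chromosome in female cells, is known to deposit H3K27me3, and its part in these values was not tested. Gpc3, Efnb1 and Pcdh19 had the widest of these regions with a gene, at 11095 bp, 9535 bp and 9383 bp.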

How the results depend on the processing

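No paired analysis was possible because each mark and population has a single list with no replicate of its own, and for the same reason no replicate could be left out. Adding chrX, asking for 500 bp of H3K27me3 or counting a TSS within 1000 bp moved no value beyond its counting interval or a factor of 1.5, and 145 of the values recomputed held while 111 moved, most of them counts that follow the number of domains. The side with more domains was kept in each width comparison under every setting, except that pregranulosa against XX progenitor cells had 213 wider and 220 narrower at a factor of 2. With 4000 bp as the limit there were 4891 domains, 83.6% with a coding TSS and 28.9% and 28.7% with H3K27me3 in XY and XX progenitor cells. H3K27me3 of both progenitor populations was then kept in both, only Sertoli, only pregranulosa and neither at 850, 81, 147 and 216. Wider and narrower domains numbered 1338 and 300 (Sertoli over XY progenitor), 731 and 660 (pregranulosa over XX progenitor), 292 and 1062 (Sertoli over pregranulosa) and 1855 and 18 (XX over XY progenitor). The lists held 36 ribosomal, 21 Polycomb and Trithorax, 613 Sertoli-specific and 531 pregranulosa-specific genes, 256 of the last narrower in Sertoli cells. With 8000 bp there were 416 domains, 90.1% with a TSS, and 39.7%, 39.7%, 36.5% and 34.1% had H3K27me3. The same classes then held 90, 16, 16 and 31, and the widths 138 and 69, 104 and 100, 46 and 143, and 183 and 0. The lists held 7 core, 8 testis, 11 ovary, 36 other developmental factor, 11 histone, 5 ribosomal, 5 Polycomb and Trithorax, 3 tumour suppressor, 11 signalling, 73 Sertoli-specific and 89 pregranulosa-specific genes, with 30 Sertoli-specific genes wider and 4 narrower and 56 pregranulosa-specific genes narrower. Lists of equal number (the 486 widest regions of each) gave 1067 domains, 89.4% with a TSS, H3K27me3 at 35.5%, 35.4%, 32.2% and 32.1%, and classes of 214, 23, 44 and 66. Sertoli over XY progenitor then had 341 wider, and the others 207 and 191, 95 and 269, and 383 and 3. There were 10 testis, 25 histone, 8 Polycomb and Trithorax, 179 Sertoli-specific (53 wider, 6 narrower) and 168 pregranulosa-specific genes (89 narrower). Joining regions within 1000 bp gave 81.2% with a TSS, 59 that kept H3K27me3 only in Sertoli cells, 324 narrower in Sertoli than in XY progenitor cells, 675 and 631 for pregranulosa over XX progenitor, 322 wider in Sertoli than in pregranulosa cells, 17 narrower in XX than in XY progenitor cells and 2 pregranulosa-specific genes wider in Sertoli cells. H3K27me3 over at least 50% of a domain left 25.7%, 27.1%, 23.2% and 24.1%, and H3K27me3 lists of equal number 28.1% in XY progenitor, 22.5% in Sertoli and 23.3% in pregranulosa cells. A factor of 2 gave 402 and 82, 213 and 220, 78 and 274, and 494 and 3, with 42 Sertoli-specific genes wider and 3 narrower and 91 pregranulosa-specific genes narrower. Covered bases in place of the widest region gave 110 wider in Sertoli than in pregranulosa cells, 3 narrower in XX than in XY progenitor cells and 54 Sertoli-specific genes wider and 6 narrower. Ranks gave 403 narrower in Sertoli and 137 narrower in XX than in XY progenitor cells. The 5′ end of the gene record alone gave 78.0% with a TSS. That last setting and the counts of study list genes by width were chosen after seeing the data, and the cause of moves other than those that follow from fewer or more domains was not tested. Depth is known for 3 of the 4 populations.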
